A study of Mus musculus with 12 samples.

Results

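Ileal gene expression was compared between 2 diets, one with more fat in the pellets and one with sugar in the drinking water. The comparison used 6 of the 12 ileum libraries of the series, 3 from mice on a high-fat diet with plain water (HF) and 3 from mice on a normal-fat diet with a sugar drink (NF_Sugar), and covered every gene of the deposited table. All mice were C57BL/6, aged 16 weeks, with RNA taken from each ileum separately after 10 weeks on the diet. The high-fat pellets carried 60% of their calories as fat and the drink held 23% (w/v) sugar, which the study describes as sucrose. With more of their calories as fat, these pellets had a smaller share from other nutrients, which is also part of the comparison. The other 2 groups, normal fat with plain water (NF) and high fat with the sugar drink (HF_Sugar), had 3 mice each and entered the fit as a shared estimate of the spread. HF and NF_Sugar differ in both fat and sugar, which cannot be told apart in the difference between them, so the levels in NF and HF_Sugar are given beside the main results.

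The absorptive cells of the small intestine take up fatty acids and monoacylglycerol, rebuild triglycerides and export them in chylomicrons, whereas sucrose is split at the brush border and its glucose and fructose enter through separate transporters. Most sugar and fat are absorbed upstream of the ileum, whose specialty is the recovery of bile acids through the transporter Slc10a2 and the binding protein Fabp6. The ileal epithelium also lives next to a dense microbiota and secretes antimicrobial lectins and acute-phase proteins when bacteria touch it.

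Depth, recovered from the steps between low values, was 20.2 to 23.9 M reads in the HF libraries and 15.3 to 23.8 M in the NF_Sugar libraries. The deposited values were RPKM, reads per kilobase of exon relative to the depth of the library. Values are given throughout in the order of replicates 1, 2 and 3, with HF before NF_Sugar. The ileal marker Fabp6 was high in all 6 libraries, at 7627, 2677 and 5567 against 2574, 2926 and 3282 RPKM, and so was Slc10a2, at 64.4, 80.7 and 89.5 against 98.6, 77.7 and 94.9 RPKM. HF replicate 2 and NF_Sugar replicate 1 stood apart on the first principal component, as did 1 library of each of the other groups. These 2 libraries had 73.4% and 73.7% of reads in genes against 77.6% to 81.2% in the other 4, and mean log2 values of ribosomal protein genes of 5.71 and 5.87, against 6.19 to 6.69 in the 8 libraries that did not stand apart.

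Across 17662 genes tested with limma on log2(RPKM + 1) values, no gene passed a Benjamini-Hochberg adjusted p under 0.05 in either direction (0.0% called). The lowest adjusted p was 0.279, for the immunoglobulin segment Igkv8-18, and every gene given below with a log2 difference had an adjusted limma p of 0.9997. At an unadjusted limma p under 0.05, 203 genes were higher in HF (1.15% of those tested) and 188 were lower (1.06%), together 391 (2.21%). This count ran from 272 to 908 when 1 of the 6 libraries was left out in turn, with 908 reached without NF_Sugar replicate 1, and came to 970 (5.49%) without the 4 libraries that stood apart. In RPKM as deposited, the 3 libraries of one diet lay above the 3 of the other for 1076 genes (6.09%), with HF above for 740 (4.19%) and below for 336 (1.9%). After scaling for library composition, HF was above for 431 (2.44%) and below for 562 (3.18%), so the balance of higher and lower genes depended on the scaling. Fitted log2 differences lay below 0 for 51.1% of genes and above 0 for 48.9%. What follows is a description of levels, their spread and their direction, and no gene is counted as changed. A gene is said to be without overlap where all 3 libraries of one diet lay above all 3 of the other in RPKM as deposited.

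Of 61 gene lists examined, the one whose median lay farthest from 0 was the epithelial response to adherent microbes, which was lower in HF. This list of antimicrobial, acute-phase and oxidant-producing genes had 16 tested members of 18. All 16 had a lower fitted level in HF, with a median log2 difference of -1.19, while the median over all tested genes was -0.004. For 10 of the 16 members every HF library lay below every NF_Sugar library (background 1.9%), and the same 10 had an unadjusted limma p under 0.05 (background 1.06%). Mean log2 values over the list were 2.85, 3.76 and 3.80 in HF and 4.29, 5.60 and 4.88 in NF_Sugar, and the groups did not overlap. They were 4.18, 4.70 and 4.11 in NF and 4.79, 4.20 and 4.41 in HF_Sugar. Each NF and HF_Sugar library lay above every HF library, and both groups overlapped with NF_Sugar. Leaving out 1 library in turn gave medians of -1.51 to -0.80, nearest 0 without HF replicate 1, and without the 4 libraries that stood apart the median was -1.67.

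The stretches just upstream of Saa1, Saa2 and Reg3g are shown because these 3 genes had the largest log2 differences of the list (RefSeq, build GRCm38.p6, 5′ to 3′ along the gene). Saa1 is given at chr7:46742981-46743230 on the minus strand, Saa2 at chr7:46751583-46751789 on the plus strand and Reg3g at chr6:78468875-78469124 on the minus strand. Capitals mark a match to the C/EBP motif TTGCNNAA on either strand.
Saa1: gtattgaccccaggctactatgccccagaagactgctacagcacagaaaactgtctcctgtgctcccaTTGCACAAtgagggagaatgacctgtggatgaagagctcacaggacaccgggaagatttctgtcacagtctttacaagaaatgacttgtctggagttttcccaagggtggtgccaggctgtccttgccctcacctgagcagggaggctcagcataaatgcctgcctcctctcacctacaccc
Saa2: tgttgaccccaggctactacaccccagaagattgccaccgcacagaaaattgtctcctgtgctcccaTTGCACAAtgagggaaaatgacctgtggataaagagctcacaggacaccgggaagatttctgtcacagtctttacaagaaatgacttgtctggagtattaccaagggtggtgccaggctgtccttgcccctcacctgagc
Reg3g: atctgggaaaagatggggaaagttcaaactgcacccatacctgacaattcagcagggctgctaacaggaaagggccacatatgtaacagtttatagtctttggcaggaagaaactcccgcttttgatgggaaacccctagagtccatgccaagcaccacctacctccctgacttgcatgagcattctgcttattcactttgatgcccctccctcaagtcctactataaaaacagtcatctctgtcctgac
The Saa1 and Saa2 stretches were identical at 186 of 207 aligned bases (89.9%) and each held 1 match to the C/EBP motif, which 9.56% of 32851 promoter windows of 250 bases hold on either strand. No match to the STAT motif TTCNNNGAA (7.02% of windows, either strand) lay in the 3 stretches, and the Reg3g stretch held neither motif. A match or its absence in such a window is a description of letters only.

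Reg3g and Reg3b encode C-type lectins that Paneth cells and enterocytes secrete against bacteria. Reg3g (chromosome 6, 78466269 to 78468872, build GRCm38) stood at 264, 803 and 922 RPKM in HF and 1926, 7338 and 4179.7 in NF_Sugar. Every HF value was below the lowest NF_Sugar value, and the group means, 663 ± 351 and 4481 ± 2718 RPKM (SD, n = 3 each), differed 6.76-fold. On the log2 scale Reg3g differed by -2.79 ± 0.66 (SE), and by -3.27 to -2.22 with 1 library left out. Its neighbor Reg3b (chromosome 6, 78370657 to 78373466) stood at 628, 1517 and 1638 RPKM in HF and 2229, 9912 and 6624 in NF_Sugar, again without overlap (log2 -2.23 ± 0.63). These paralogs are similar in sequence, so reads may have been shared between them. The levels of Reg3g in the other diets were 1612 ± 515 RPKM in NF and 2303 ± 1620.2 in HF_Sugar (SD, n = 3 each), with means between those of HF and NF_Sugar. Reg3b means stood in the same order, at 1261 in HF, 2512 in NF, 4079 in HF_Sugar and 6255 RPKM in NF_Sugar. Single libraries of Reg3b were at 2422, 2795 and 2318 RPKM in NF, all above the HF values, and at 7867, 2153 and 2217 in HF_Sugar, which overlapped with NF and with NF_Sugar.

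Saa1 and Saa2 encode serum amyloid A proteins, acute-phase proteins that carry retinol and that the ileal epithelium makes in response to adherent bacteria. Saa1 (chromosome 7, 46740497 to 46742980) was at 1.15, 38.8 and 18.9 RPKM in HF and 57.3, 652 and 234 in NF_Sugar, a 16-fold difference in means (log2 -4.16 ± 1.11). The lowest NF_Sugar value exceeded the highest HF value, and NF_Sugar replicate 2 was far above the other mice. With 1 library left out the log2 difference ran from -5.05 to -2.93, nearest 0 without HF replicate 1. In NF Saa1 was at 64.8, 114 and 60.1 and in HF_Sugar at 222, 89.8 and 44.6 RPKM, so all 6 of these libraries were above all 3 HF libraries. Saa2 (chromosome 7, 46751790 to 46754313), which lies head to head with Saa1, was expressed at lower levels of 0.0997, 0.845 and 0.707 against 1.62, 33 and 9.65 RPKM, also without overlap. Reads of these close copies may be shared as well.

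Genes for enzymes that make reactive oxygen or nitrogen were lower in HF too. Duox2, a dual oxidase that releases hydrogen peroxide, was at 6.36, 17.2 and 26.3 against 26.4, 50.8 and 38.2 RPKM (log2 -1.36 ± 0.47), with HF replicate 3 just under NF_Sugar replicate 1. Its maturation factor Duoxa2 was at 14.1, 17.4 and 30.6 against 32.2, 91.4 and 48 RPKM (log2 -1.41 ± 0.50). Nos2, the inducible nitric oxide synthase, was at 8.04, 23.1 and 15.8 RPKM in HF and 29.9, 29.1 and 28.3 in NF_Sugar (log2 -1.01 ± 0.41). The NF_Sugar values of Nos2 were nearly equal and close to the means of NF (32.3 ± 10.9) and HF_Sugar (32.3 ± 15.9 RPKM), although single NF and HF_Sugar libraries reached down into the HF range.

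The other members without overlap were expressed at low levels. Lcn2, which binds bacterial siderophores, was at 0.494, 0.406 and 0.566 against 0.769, 1.62 and 1.12 RPKM. Fut2, a fucosyltransferase of epithelial glycans, was at 0.239, 0.579 and 0.792 against 1.08, 8.25 and 1.97 RPKM. Retnlb, a goblet cell protein that keeps bacteria from the epithelium, was at 0, 0.266 and 0.285 against 1.15, 36.1 and 1.13 RPKM. NF_Sugar replicate 2 was far above the other libraries for Fut2 and Retnlb, and these genes, like Lcn2, Duox2 and Duoxa2, were named after their values were seen. Ccl28, a mucosal chemokine for IgA-secreting cells and also a member, overlapped between the diets at 3.54, 5.31 and 5.19 against 8.24, 6.54 and 5 RPKM. Outside the list, Dmbt1 (chromosome 7, 131032053 to 131121630), a scavenger receptor protein of mucus that aggregates bacteria, was at 26.8, 69.1 and 83.8 RPKM in HF and 140.1, 344 and 186 in NF_Sugar (log2 -1.98 ± 0.50). Dmbt1 was highest in NF_Sugar replicate 2, like both Reg3 genes, and its HF_Sugar values of 226, 117 and 113 RPKM were all above the HF values. Pla2g5, a secreted phospholipase that acts on bacterial membranes among others, was at 0.798, 1.17 and 1.92 against 2.42, 7.26 and 4.43 RPKM, without overlap.

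**Figure D1:**
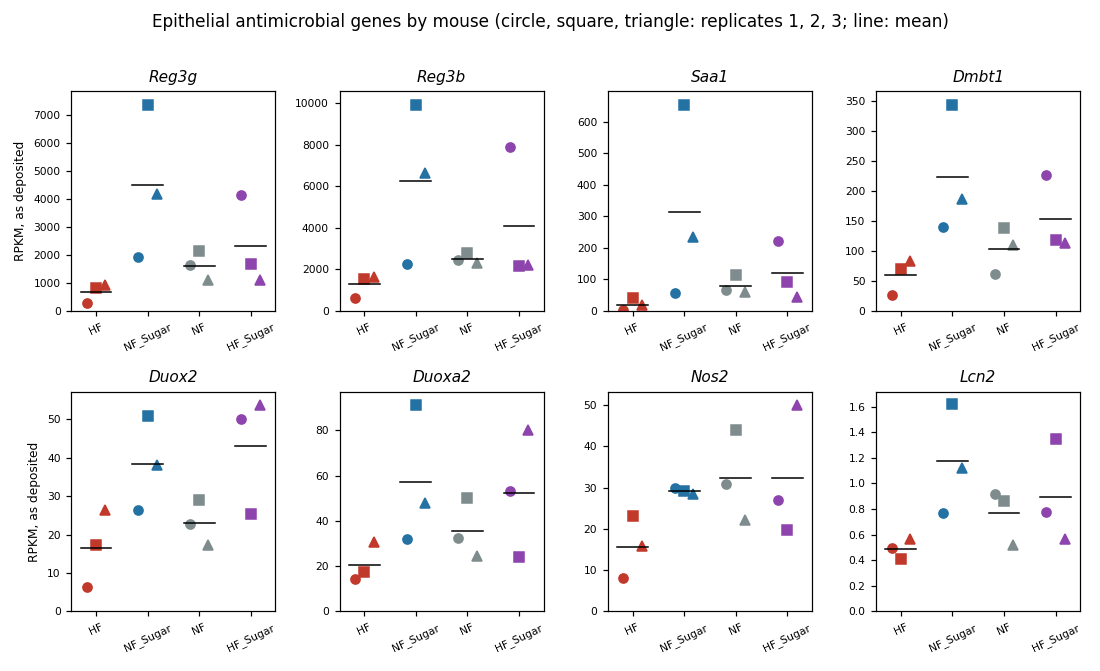
Levels of 8 antimicrobial and acute-phase genes (vertical axes, RPKM as deposited, from 0) in each mouse of the 4 diet groups (horizontal axes), with symbols for replicates 1, 2 and 3 and a line at the group mean of 3 mice. The 3 HF mice sit below the 3 NF_Sugar mice in each panel, and NF_Sugar replicate 2 is the highest mouse for Reg3g, Reg3b, Saa1 and Dmbt1.

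Markers of other tissue layers and regions stood beside these values. Of the colonic epithelium list, 8 of 10 tested members were lower in HF, with a median log2 difference of -0.48 (-0.26 without NF_Sugar replicate 3), and the summed level was 115 to 158 RPKM in HF and 164 to 969 in NF_Sugar. This list shares Saa1 with the microbial response. Without Saa1, 7 of 9 members were lower, the median was -0.22 and the sums were 79.2 to 139 RPKM in HF and 107 to 317 in NF_Sugar. B3galt5, a galactosyltransferase high in the colon, was at 0.115, 0.24 and 0.378 against 0.676, 1.55 and 0.957 RPKM. Smooth muscle genes had a lower fitted level in HF for 17 of 17 tested members (median -0.40, -0.73 without NF_Sugar replicate 1 and -0.26 without NF_Sugar replicate 2), with sums of 975 to 1059.7 RPKM in HF and 873 to 1913 in NF_Sugar, where NF_Sugar replicate 1 had the lowest sum of the 6. Actg2, a muscle actin, was at 105, 97.8 and 102 against 95.6, 283 and 191 RPKM. Paneth cell products were lower for 19 of 20 tested members (median -0.24), but the median was 0.28 without NF_Sugar replicate 2 and 0.16 without HF replicate 2. Lyz1, the Paneth cell lysozyme, was at 3156, 2056 and 3323 against 4004, 3525 and 1400.5 RPKM. No member of these lists was at 0 in all 6 libraries. The part of tissue composition in the microbial response was not tested, and in whole ileum fewer cells of a type cannot be told apart from less RNA per cell.

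**Figure D2:**
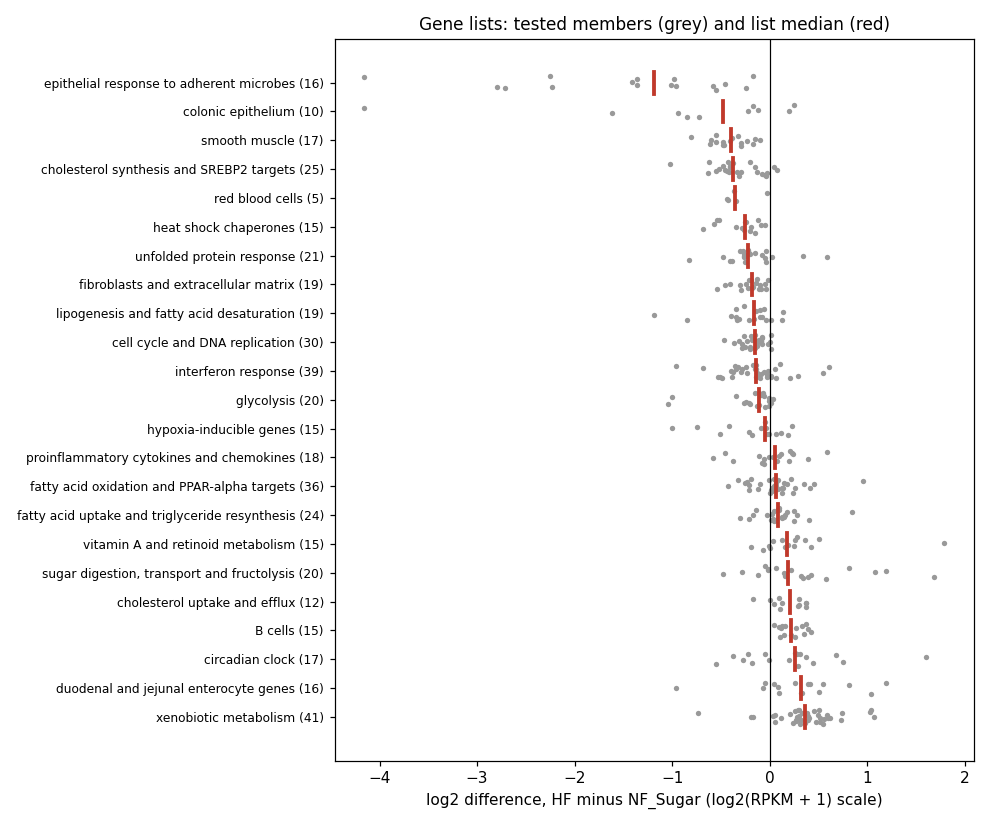
Log2 differences, HF minus NF_Sugar on the log2(RPKM + 1) scale (horizontal axis), for the tested members (grey points) and the median (red bar) of 23 gene lists, with the number of tested members in brackets. The list of the response to adherent microbes lies farthest to the left, with a median of -1.19, and xenobiotic metabolism has the highest median of those drawn, at 0.36.

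Genes of sugar handling, as a list, were not higher in the mice that drank sugar. Of 20 tested genes of sugar digestion, transport and fructolysis, 14 had a higher fitted level in HF and 6 a lower one, with a median log2 difference of 0.19. Treh, Slc5a4a, Slc2a7 and Sord were without overlap and higher in HF (4 of 20, background 4.19%), which held for 2 of 20 after scaling (background 2.44%), and Sord was named after its values were seen. An unadjusted limma p under 0.05 was reached by 4 members, all higher in HF (background 1.15%). The list median depended on single libraries, from 0.05 without HF replicate 1 and 0.08 without NF_Sugar replicate 2 up to 0.33 without HF replicate 3.

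The main route of dietary fructose and glucose overlapped between the diets. Slc2a5, the fructose transporter of the brush border, was at 33.5, 28.8 and 22.3 RPKM in HF and 29.8, 23 and 20.01 in NF_Sugar. The means of Slc2a5 in NF and HF_Sugar, 16.5 and 17.1 RPKM, were below both. Khk, which commits fructose to breakdown, was at 159.8, 70.2 and 80.7 against 70.7, 67.9 and 87.3 RPKM, with HF replicate 1 far above the others. Slc5a1, the sodium-glucose cotransporter, was at 257, 178 and 241 against 243, 184 and 286 RPKM. Sis, the sucrase-isomaltase that splits sucrose, was at 138, 131 and 123 against 133, 77.9 and 136 RPKM. Slc2a2, the basolateral sugar exporter, was at 14.6, 4.45 and 7.42 against 8.14, 1.57 and 11.2 RPKM, lowest in NF_Sugar replicate 2. Slc2a5, Slc5a1, Sis and Slc2a2 were chosen for their role after their values were seen.

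Less central members separated the diets more. Slc5a4a (chromosome 10, 76147451 to 76189265), a relative of the glucose cotransporters, was at 7.43, 2.93 and 4.26 RPKM in HF and 2.11, 0.795 and 2.04 in NF_Sugar (log2 1.08 ± 0.31). Its level in NF, 3.42 ± 1.58 RPKM, was closer to HF, and that in HF_Sugar, 1.62 ± 0.431 (SD, n = 3 each), closer to NF_Sugar. The neighboring paralog Slc5a4b overlapped, at 23.2, 2.69 and 9.42 against 4.08, 0.34 and 2.78 RPKM, and reads of the pair may be shared. Treh, the brush-border trehalase, was at 57.5, 43.2 and 34.2 against 31.7, 16.2 and 26.2 RPKM (log2 0.81 ± 0.29), but overlapped after scaling. Slc2a7, a hexose transporter of the facilitative family, was at 4.57, 2.45 and 2.91 against 2.03, 1.17 and 2.18 RPKM (log2 0.58 ± 0.25). In each of these genes HF replicate 1 was the highest of the 6 libraries and NF_Sugar replicate 2 the lowest.

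Genes of glucose use had mostly lower fitted levels in HF. Of 20 tested glycolysis genes, 18 had a lower fitted level in HF, with a median of -0.11, which was -0.05 without HF replicate 2 and -0.17 without HF replicate 3. Hk2, a hexokinase that phosphorylates glucose, stood at 2.26, 3.97 and 4.42 RPKM in HF and 7.35, 11.8 and 5.62 in NF_Sugar (log2 -1.04 ± 0.39). Pfkfb3, which makes the activator of phosphofructokinase, was at 1.25, 1.47 and 1.62 RPKM in HF and 3.1, 3.8 and 4.56 in NF_Sugar, 2.63-fold lower in HF by the means. Both were without overlap, and both had their highest group mean in NF, at 9.53 ± 4.72 and 5.31 ± 4.13 RPKM (SD, n = 3 each), with a wide spread between the NF mice. Pfkfb3 is also 1 of 3 lower members without overlap among 15 tested hypoxia-inducible genes (background 1.9%). Adm, the vasodilator adrenomedullin, was at 1.96, 2.74 and 1.8 against 4.16, 3.3 and 5.1 RPKM. P4ha1, a collagen prolyl hydroxylase subunit, was at 0.62, 0.899 and 1.01 against 1.18, 1.05 and 2.18 RPKM. The hypoxia list as a whole stayed near 0 (median -0.05, 11 of 15 lower), and Hif1a, the oxygen-regulated factor itself, overlapped at 2.92, 2.59 and 3.66 against 3.51, 3.13 and 4.11 RPKM. Targets of the carbohydrate-responsive factor ChREBP and gluconeogenic genes had 11 of 15 members higher in HF (median 0.11), but 8 of 15 without HF replicate 1 or without HF replicate 2, with medians near 0. Among them Txnip, a thioredoxin inhibitor that glucose induces in many cells, was at 149, 203 and 135 against 113, 115 and 111 RPKM, without overlap and higher in HF (log2 0.44 ± 0.17), while HF_Sugar was at 136, 139.8 and 151 RPKM.

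**Figure D3:**
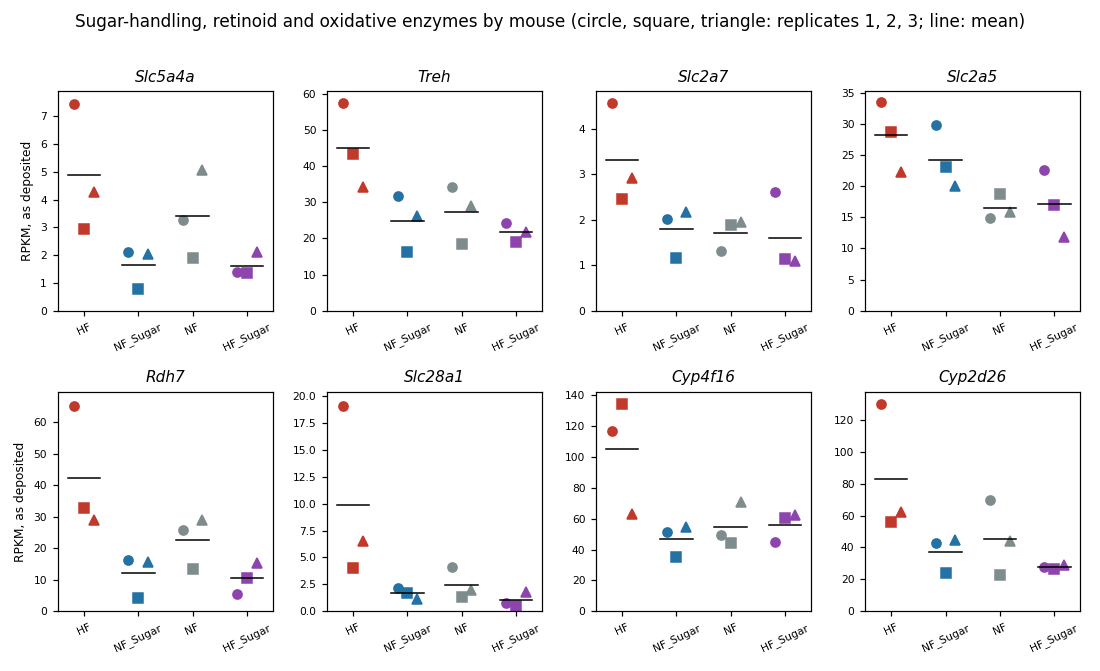
Levels of 8 sugar-handling, retinoid, nucleoside and oxidative genes (vertical axes, RPKM as deposited, from 0) in each mouse of the 4 diet groups, with symbols for replicates 1, 2 and 3 and a line at the group mean of 3 mice. HF replicate 1 is the highest HF mouse in each panel except Cyp4f16, and the diets overlap for the fructose transporter Slc2a5.

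Lists of fat handling had small median differences between the fat and the sugar diet, while single members ranged more widely, from -0.43 to 0.96 in fatty acid oxidation. Of 36 tested genes of fatty acid oxidation and PPAR-alpha targets, 26 were higher in HF, with a median of 0.06, and none had an unadjusted limma p under 0.05. Without HF replicate 1 this direction turned, with 14 of 36 higher and a median of -0.04. The 2 members without overlap were higher in HF (background 4.19%). Acadm, the medium-chain acyl-CoA dehydrogenase, was at 24.6, 23.9 and 22.4 RPKM in HF, 1.18-fold the NF_Sugar level by the means. Acads, the short-chain enzyme, was at 74.8, 66.8 and 63 against 55.6, 60.7 and 48.9 RPKM, 1.24-fold by the means. Cpt1a, the gate for fatty acid entry into mitochondria, overlapped at 34.3, 38.3 and 32.7 against 34.8, 37.6 and 28.1 RPKM.

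Uptake and triglyceride resynthesis had 19 of 24 members higher in HF and a median of 0.09. This direction turned too, with 11 of 24 higher (median -0.02) without HF replicate 1 and 10 (median -0.03) without NF_Sugar replicate 2. Fabp2, the intestinal fatty acid binding protein, was at 6136, 1253 and 2687 against 1678, 847 and 2252 RPKM, with HF replicate 1 far above the rest. Cd36, a fatty acid transporter named after its values were seen, was at 1.93, 1.31 and 1.78 against 0.925, 1.37 and 2.7 RPKM. Mogat2, which re-esterifies monoacylglycerol, was at 177, 129 and 137 against 137, 82.7 and 139 RPKM. Lpin1, a phosphatidate phosphatase of triglyceride synthesis, was the member with an unadjusted limma p under 0.05, in the lower direction, and was without overlap at 0.476, 0.675 and 0.742 against 0.957, 0.943 and 1.03 RPKM (log2 -0.30 ± 0.09). NF and HF_Sugar had mean Lpin1 levels of 0.988 and 0.962 RPKM, near NF_Sugar. Apolipoproteins and chylomicron assembly had 10 of 14 members higher in HF (median 0.06). The sums of that list were 6329 to 13224 RPKM in HF and 3544 to 7898 in NF_Sugar. Its median was -0.05 without HF replicate 1 and -0.10 without NF_Sugar replicate 2. Lipogenesis and desaturation had 16 of 19 members lower in HF (median -0.16, -0.07 without NF_Sugar replicate 2 and -0.28 without NF_Sugar replicate 1), 2 of them without overlap (background 1.9%). Elovl7, a fatty acid elongase, was at 7.57, 6.83 and 8.7 against 8.8, 9.99 and 9.63 RPKM. Acly, which makes cytosolic acetyl-CoA from citrate, was at 6.66, 8.68 and 8.96 against 9, 10.5 and 9.25 RPKM. Scd2, a stearoyl-CoA desaturase, overlapped at 7.8, 21.8 and 16.2 against 20.7, 33.5 and 23.6 RPKM.

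Cholesterol genes split by role. Of 25 genes of cholesterol synthesis and other SREBP2 targets, 23 had a lower fitted level in HF, with a median of -0.38. In RPKM as deposited no member was without overlap (background 1.9%), after scaling 2 were (background 3.18%), and 3 had an unadjusted limma p under 0.05 (background 1.06%). Hsd17b7, a sterol reductase, was at 2.96, 4.03 and 4.25 against 3.99, 5.95 and 5.8 RPKM (log2 -0.43 ± 0.17). Mvd, the mevalonate diphosphate decarboxylase, was at 12.4, 17.5 and 17.4 against 16.5, 30.7 and 26.2 RPKM (log2 -0.62 ± 0.26). Sqle, the squalene epoxidase, was at 8.25, 16.8 and 16 against 14.5, 23.1 and 24.3 RPKM (log2 -0.63 ± 0.27). In each of the 3, HF replicate 1 was the lowest library and NF_Sugar replicate 1 lay within the HF range. Hmgcs1, an early enzyme of the pathway, was at 27.7, 46.5 and 44.1 against 31.2, 68.3 and 63.5 RPKM, and was named after its values were seen. Without HF replicate 1 the list median was -0.17, without NF_Sugar replicate 2 it was -0.25, and without the 4 libraries that stood apart -0.62. Mean log2 values over the list were 3.43, 3.88 and 3.86 in HF, below each NF library (4.31, 4.09 and 4.03) and each HF_Sugar library (3.99 to 4.38), and 3.77, 4.22 and 4.17 in NF_Sugar.

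Uptake and efflux of cholesterol had the opposite tilt, with 11 of 12 members higher in HF (median 0.21, 0.07 without NF_Sugar replicate 2). Nr1h3, the sterol receptor LXR alpha, was at 19.9, 15.8 and 15.3 against 14.7, 9.96 and 15.3 RPKM. Its target Abca1, a cholesterol exporter, was at 2.28, 1.37 and 2.09 against 2.34, 0.53 and 1.02 RPKM, with NF_Sugar replicate 1 the highest of the 6. Bile acid handling, the specialty of the ileum, had 7 of 11 members higher, a median of 0.19 (0.02 without NF_Sugar replicate 2, 0.09 without HF replicate 1) and no member with an unadjusted limma p under 0.05. Slc51b, which encodes the beta chain of OST, the exporter on the basolateral side, was at 186, 163 and 201 against 284, 144 and 281 RPKM. Fgf15, the hormone that reports bile acids to the liver, named after its values were seen, was at 31.7, 43 and 17.1 against 63, 2.98 and 21.1 RPKM, so that the mice of 1 group differed more than the group means.

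Xenobiotic metabolism had the highest median of the 61 lists, at 0.36, and 38 of 41 tested members had a higher fitted level in HF. In RPKM as deposited 7 members were without overlap and higher (background 4.19%) and 2 lower (background 1.9%). The lower ones were Cyp1b1 and Cyp3a44, named after their values were seen. After scaling 4 were higher (background 2.44%) and 2 lower (background 3.18%). An unadjusted limma p under 0.05 was reached by 5 members, all higher (background 1.15%). Cyp2d26, a cytochrome P450, was at 129.5, 56.2 and 61.9 against 42.7, 23.9 and 44.5 RPKM (log2 1.03 ± 0.41). Cyp2u1, a P450 that hydroxylates fatty acids, was at 8.97, 7.61 and 6.91 against 6.13, 4.1 and 4.47 RPKM. Ephx1, the microsomal epoxide hydrolase, was at 4.66, 3.96 and 3.96 against 2.98, 3.45 and 3.16 RPKM. Gsta4, a glutathione transferase for lipid aldehydes, was at 18.8, 9.5 and 11.4 against 7.61, 5.44 and 8.18 RPKM. Abcb1a, a drug efflux pump named after its values were seen, overlapped at 46.6, 28.5 and 40.2 against 40.9, 10.6 and 10.6 RPKM. Cyp2b10, a target of the receptor CAR, was at 5.98, 0.307 and 1.76 against 0.995, 0.0469 and 0.31 RPKM. The list median ran from 0.17 without NF_Sugar replicate 2 to 0.54 without NF_Sugar replicate 1. Mean log2 values over the list were 4.14, 3.45 and 3.66 in HF, 3.89, 3.46 and 3.90 in NF, 3.40, 3.37 and 3.36 in HF_Sugar and 3.76, 2.98 and 3.39 in NF_Sugar. The 3 HF_Sugar libraries lay below all HF and NF libraries, and NF_Sugar overlapped with both.

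Several of the genes with the smallest unadjusted p were absorptive or metabolic genes with higher values in HF. Slc28a1, a concentrative nucleoside transporter (chromosome 7, 81114799 to 81170416), was at 19.1, 4.03 and 6.57 RPKM in HF and 2.19, 1.66 and 1.13 in NF_Sugar (log2 1.76 ± 0.47). The means differed 5.95-fold, and the log2 difference was 1.20 without HF replicate 1. Rdh7, a retinol dehydrogenase (chromosome 10, 127884028 to 127888817), was at 65.2, 32.9 and 29.1 RPKM in HF and 16.3, 4.13 and 15.6 in NF_Sugar (log2 1.79 ± 0.51). The 15 tested genes of vitamin A metabolism to which Rdh7 belongs had a median of 0.18, and 0.05 without HF replicate 1. Cyp4f16, a P450 that hydroxylates leukotrienes and fatty acids (chromosome 17, 32536558 to 32551798), was at 117, 134 and 63.1 RPKM in HF and 51.2, 35.3 and 54.5 in NF_Sugar, 2.23-fold higher by the means. NF and HF_Sugar averaged 54.8 and 55.8 RPKM of Cyp4f16, near NF_Sugar. Faah, which breaks down anandamide and other fatty acid amides, was at 24.9, 16.9 and 18.7 against 14.8, 10.0 and 10.5 RPKM. Slc6a4, the serotonin transporter, was even within the diets at 13.7, 13 and 14 against 9.6, 8.56 and 10.9 RPKM (log2 0.41 ± 0.12). Ces2g, a carboxylesterase, was at 2.4, 1.97 and 2.31 against 1.4, 1.54 and 1.36 RPKM. Lpar3, a lysophosphatidic acid receptor, was at 4.84, 2.97 and 2.87 against 1.96, 1.33 and 2.26 RPKM. Igflr1, a receptor of the tumor necrosis factor receptor family, was at 2.97, 2.08 and 2.92 against 1.23, 1.95 and 1.14 RPKM. All of these were without overlap. Pbld1, which overlapped after scaling and gave fractions of a read in NF_Sugar when turned back into reads, was at 3.17, 2.28 and 1.51 against 1.41, 0.758 and 0.884 RPKM. Among carriers, Slc6a20a, a proline transporter, was without overlap at 56.2, 50.1 and 39.3 against 38.7, 33.3 and 29 RPKM, but overlapped after scaling, in a list of 16 amino acid and peptide transporters of which 7 were higher. Slc7a8, a neutral amino acid exchanger, was at 32, 17 and 25.9 against 17.9, 9.18 and 17.5 RPKM. The water and glycerol channel Aqp3 overlapped at 15.7, 2.91 and 3.54 against 1.82, 0.677 and 3.83 RPKM, with HF replicate 1 far above the others. Aqp7 was at 7.57, 3.66 and 3.13 against 2.32, 2.33 and 3.08 RPKM.

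Genes of the upper small intestine stood beside these absorptive results. Of 16 tested duodenal and jejunal genes, 13 had a higher fitted level in HF, with a median of 0.32 and sums of 385 to 1440.2 RPKM in HF and 361 to 876 in NF_Sugar. Mean log2 values over this list were 2.65 to 4.18 in HF and 2.49 to 3.59 in NF_Sugar, highest in HF replicate 1 and lowest in NF_Sugar replicate 2. The median was -0.02 without HF replicate 1 and -0.02 without NF_Sugar replicate 2. Treh, Khk and Slc2a2 belong both to this list and to the sugar list, and Cyp2b10 both to this and to the xenobiotic list. Gata4, a factor of the proximal small intestine named after its values were seen, was at 5.02, 0.64 and 4.5 against 2.54, 0.355 and 3.41 RPKM. The part of the position along the intestine in the sugar, xenobiotic and retinoid values was not tested.

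Slc40a1, the iron exporter ferroportin (chromosome 1, 45908068 to 45926523), is a duodenal gene that had the opposite direction. It was at 1.25, 2.6 and 2.46 RPKM in HF and 4.52, 4.57 and 5.23 in NF_Sugar (log2 -0.96 ± 0.22), and the 3 HF values lay under the 3 NF_Sugar values. The difference was -1.09 to -0.74 with 1 library left out, and NF and HF_Sugar averaged 3.28 and 4.1 RPKM, between the other diets. Tfrc, the transferrin receptor, overlapped at 9.21, 8.84 and 11.8 against 11.1, 13.2 and 13.7 RPKM. The 14 tested iron and heme genes had a median of -0.06.

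**Figure D4:**
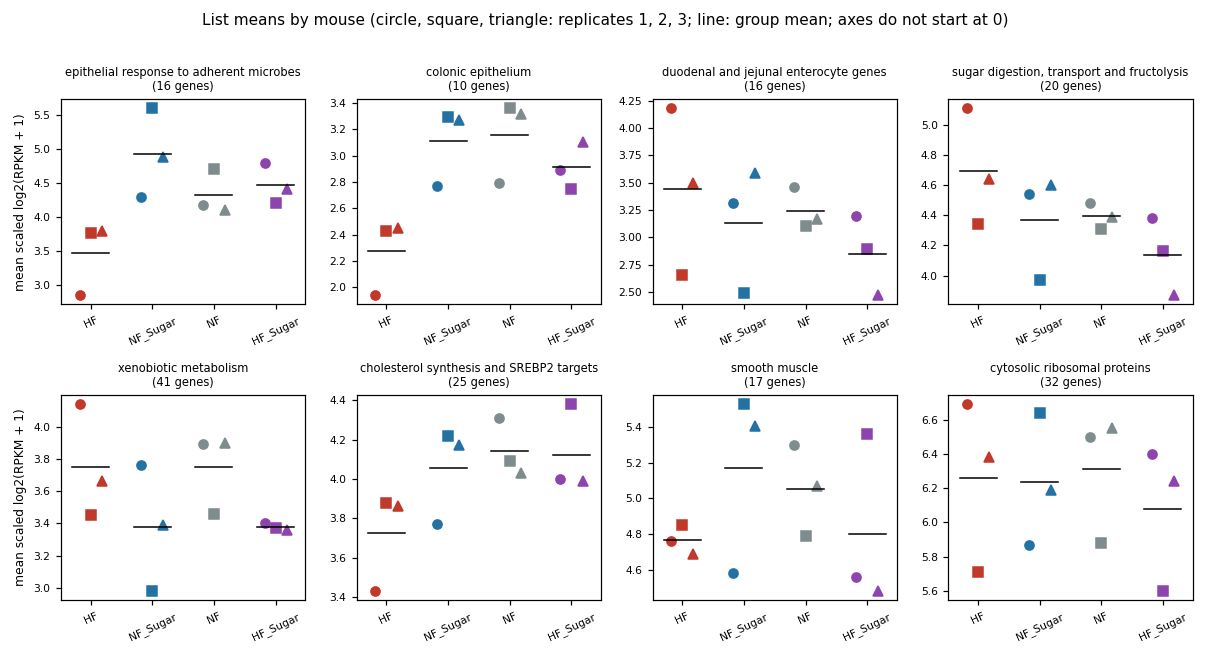
Mean scaled log2(RPKM + 1) over the tested members of 8 gene lists (vertical axes, which do not start at 0) in each mouse of the 4 diet groups, with symbols for replicates 1, 2 and 3 and a line at the group mean of 3 mice. HF replicate 1 has the highest values for the duodenal and jejunal, sugar and xenobiotic lists, and the response to adherent microbes is lower in the 3 HF mice than in the 3 NF_Sugar mice.

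Clock genes had 10 of 17 members higher in HF and 7 lower, with log2 differences from -0.56 to 1.61. Their median of 0.26 was close to 0 without NF_Sugar replicate 2 and 0.41 without NF_Sugar replicate 1. The members given here were all among the higher ones. Nr1d1, which encodes the clock repressor REV-ERB alpha (chromosome 11, 98767932 to 98775333), was even within the diets at 44.3, 40.7 and 42.3 RPKM in HF and 25.3, 23.2 and 23.6 in NF_Sugar (log2 0.75 ± 0.20). The difference stayed between 0.72 and 0.81 with 1 library left out. In NF Nr1d1 was at 37.7, 37.3 and 25 and in HF_Sugar at 19.1, 22.7 and 24.1 RPKM, so the highest HF_Sugar value was below the lowest HF value while NF replicate 3 was at the NF_Sugar level and the other NF mice lay between the diets. Dbp, an output gene of the clock with a steep daily rhythm, was at 18.4, 5.68 and 7.21 against 8.4, 1.16 and 0.674 RPKM, with NF_Sugar replicate 1 inside the HF range. Its relative Tef was at 10.1, 8.79 and 7.84 against 10.6, 3.6 and 3.01 RPKM, highest in NF_Sugar replicate 1. Ciart, a clock repressor, was at 0.796, 0.368 and 0.7 against 0.446, 0.285 and 0.203 RPKM, all below 1 RPKM. The time of day of each tissue collection was not given in the sources used here, and its part in these values was not tested.

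**Figure D5:**
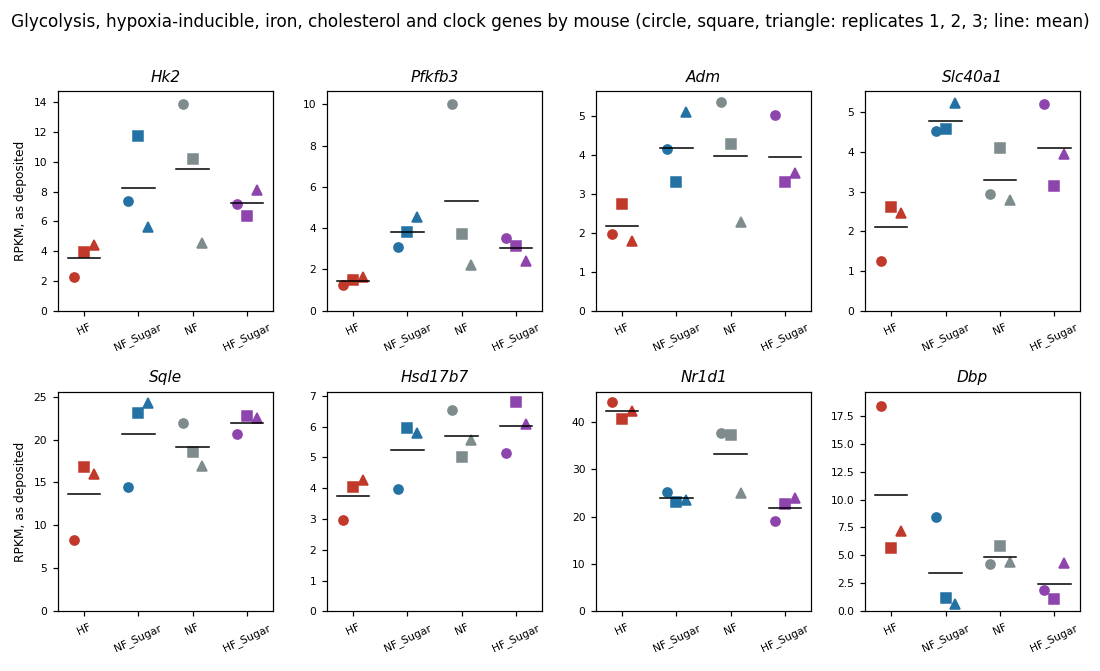
Levels of 8 genes of glycolysis, hypoxia, iron export, cholesterol synthesis and the clock (vertical axes, RPKM as deposited, from 0) in each mouse of the 4 diet groups, with symbols for replicates 1, 2 and 3 and a line at the group mean of 3 mice. The diets do not overlap for Hk2, Pfkfb3, Adm, Slc40a1 and Nr1d1, and they overlap for Sqle, Hsd17b7 and Dbp.

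Il1b, Tnf and Cxcl10 overlapped between the fat and the sugar diet. The study named them for the Western diet against the normal diet, which is a different comparison. Il1b, the cytokine interleukin 1 beta, was at 0.263, 0.606 and 0.778 RPKM in HF and 0.353, 0.623 and 0.79 in NF_Sugar. Tnf was at 0.511, 0.367 and 0.513 against 0.385, 0.544 and 0.44 RPKM. Cxcl10, an interferon-induced chemokine, was at 0.985, 1.13 and 0.901 against 0.728, 1.16 and 1.31 RPKM. The HF_Sugar means of Il1b, Tnf and Cxcl10 were 2.85, 1.2 and 3.37 RPKM. Over the 18 tested cytokines and chemokines the median was 0.05 (-0.03 without NF_Sugar replicate 1, -0.02 without HF replicate 3), and the 2 members without overlap were higher in HF (background 4.19%). Ccl4, a chemokine of activated lymphocytes and macrophages, was at 0.634, 0.841 and 1.35 against 0.0637, 0.45 and 0.298 RPKM (log2 0.59 ± 0.16). Lta, lymphotoxin alpha, was at 0.666, 0.936 and 0.966 against 0.486, 0.394 and 0.284 RPKM. Interferon response genes had 30 of 39 members lower in HF (median -0.14, but 0.07 without NF_Sugar replicate 3), 2 of them without overlap (background 1.9%). Oas1a, an antiviral oligoadenylate synthetase, was at 5.22, 5.47 and 5.22 against 7.12, 6.04 and 10.0 RPKM. Its paralog Oas1g was at 3.92, 4.31 and 4.48 against 5.3, 4.87 and 6.52 RPKM, and the pair may share reads.

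Of the sensory and hormone genes, Tas1r3, the sweet and umami taste receptor subunit, was at 0.238, 0.381 and 0.254 RPKM in HF and 0.274, 0.282 and 0.373 in NF_Sugar (log2 -0.03 ± 0.10), with overlap. Trpm5, the channel downstream of taste receptors in tuft cells, was at 1.36, 2 and 1.54 against 1.37, 1.31 and 1.25 RPKM. Gcg, the precursor of GLP-1, was at 14.7, 14.7 and 14.3 against 10.3, 15.2 and 10.4 RPKM. Nts, neurotensin, was without overlap and higher in HF at 61.2, 50.2 and 45.8 against 42.3, 32.9 and 37.8 RPKM, but overlapped after scaling. Ffar4, a receptor for long-chain fatty acids, was at 4.29, 4.45 and 6.96 against 8.03, 10.0 and 6.73 RPKM (log2 -0.62 ± 0.26), with overlap. Of the 10 tested nutrient-sensing receptors to which Ffar4 belongs, 4 had a higher fitted level in HF (median -0.03). Ffar1 and Ffar3, named after their values were seen, were without overlap and higher in HF (2 of 10, background 4.19%). This held for 1 of 10 after scaling (background 2.44%).

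Lists of immune and stromal markers differed in direction. T cell genes had 15 of 27 members higher in HF (median 0.01, -0.09 without HF replicate 3), 2 of them without overlap (background 4.19%). Plasma cell genes had 5 of 16 higher (median -0.14), and macrophage and dendritic cell genes 3 of 16 (median -0.10). The 4 tested genes of neutrophils and mast cells were all lower (median -0.17). B cell genes had a higher fitted level in HF for 15 of 15 tested members (median 0.22), none with an unadjusted limma p under 0.05 and none without overlap. The B cell median was 0.12 without HF replicate 3 and 0.06 without NF_Sugar replicate 3, where 11 of 15 were higher. The B cell sums were 63.1 to 86.9 RPKM in HF and 44.5 to 68.1 in NF_Sugar. Fibroblast and matrix genes had a lower fitted level for 19 of 19 (median -0.18), with sums of 84 to 95.2 RPKM in HF and 85.9 to 116 in NF_Sugar. Of these 19 genes, 3 were without overlap (background 1.9%), and 5 after scaling (background 3.18%). Dcn, the proteoglycan decorin, was 1 of the 3, at 6.41, 5.96 and 5.59 against 6.96, 9.87 and 8.42 RPKM.

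Chaperones of the heat shock list were lower in HF for 15 of 15 members (median -0.25, -0.04 without NF_Sugar replicate 3), and genes of the unfolded protein response for 18 of 21 (median -0.22, -0.10 without HF replicate 2 and -0.10 without NF_Sugar replicate 3). In the latter list 1 of 21 members was without overlap and higher in HF (background 4.19%). This was Ddit3, which encodes the stress factor CHOP, at 10.8, 7.32 and 8.95 against 7.11, 5.54 and 7.22 RPKM, and it overlapped after scaling. The 1 member with an unadjusted limma p under 0.05 (background 1.06%) was Asns, which was lower in HF (log2 -0.83 ± 0.315). In neither list, Dnajc10, a disulfide reductase of the endoplasmic reticulum (chromosome 2, 80315466 to 80354043), was at 4.1, 4.14 and 4.68 RPKM in HF and 5.54, 5.88 and 6.13 in NF_Sugar (log2 -0.41 ± 0.09). Its values were even within each diet, and the difference was -0.45 to -0.38 with 1 library left out. Replication and cell cycle genes were lower for 28 of 30 (median -0.15, -0.03 without NF_Sugar replicate 2). Rrm2, a ribonucleotide reductase subunit, was at 2.2, 2.1 and 2.59 against 3.03, 3.57 and 2.86 RPKM. Of the other genes with a small unadjusted p and lower values in HF, Ociad2 was at 9.16, 10.8 and 12.3 against 13.7, 26.4 and 26.5 RPKM. Mal, a protein of apical membrane sorting, was at 0.437, 2.21 and 0.944 against 2.41, 3.53 and 4.76 RPKM. Zdhhc13, a palmitoyltransferase, was at 4.69, 4.34 and 6.75 against 7.17, 7.66 and 7.45 RPKM. Each of these 3 genes was without overlap.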

How the data were processed

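RNA of 12 mouse ilea was sequenced, with 1 library per mouse. By the paper, the authors aligned with STAR within Partek Flow, counted Ensembl genes and tested them with DESeq2. Partek and mm10 are named in the submitters' processing notes. The deposited values are RPKM, and 12 of 12 per-sample files equalled their column of the table. Rows named by a number alone (26, with up to 0.135% of the summed RPKM of a library) were left out. Depth was recovered from the steps of low RPKM and exon length (85.8% to 87.7% of low values came out whole within 0.03). A trimmed mean of M values (30% and 5% trimmed) scaled the libraries. Genes with 0.5 RPKM in at least 3 libraries were tested, and Tas1r3 was kept whatever its level, which came to 17662 genes in all. They were fitted as log2(RPKM + 1) over all 12 libraries with limma 3.58.1 in R 4.3.3 (trend, 8 residual degrees of freedom, 2-sided, Benjamini-Hochberg adjustment). The fits were tested on simulated data.

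Genes were named by rule. Up to 12 each way had the smallest unadjusted p among genes without overlap and with a higher group mean of at least 2 RPKM, passing over predicted models, pseudogenes and receptor segments. Up to 4 came from each of 61 gene lists, and others from the study's text. Some genes that met the rule are not reported here. The comparison, lists and rules were chosen with earlier results of these data known. Positions are from the GRCm38 annotation (40525 of 44205 genes matched by symbol). Differences of log2(RPKM + 1) understate those of low genes. Alternatives were other pseudocounts, filters and scalings, the 6 libraries alone, the replicate number as a block, membership of the 4 libraries that stood apart as a covariate, protein-coding genes, limma-voom on recovered reads, and fits without those 4 libraries, without genes giving fractions of a read, or without each library in turn.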

Additional observations from a re-analysis of the deposited data

How the results depend on the processing

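No gene passed the adjusted threshold as reported or in any of 18 other fits, nor at the study's thresholds (adjusted p 0.01 and 2-fold), where 0 genes were called. The lowest adjusted p ran from 0.0591 to 1.0. Genes with an unadjusted limma p under 0.05 numbered 391 as reported, 1203 with no filter on low values (44205 genes tested), 140 with a mean RPKM of at least 5 (7098 tested) and 970 without the 4 libraries that stood apart, for which the number of genes tested and the number of libraries differ by construction. Leaving out 1 library in turn gave 272 to 908. The other fits gave 324 to 511. In RPKM as deposited, 264 of 387 such genes (68.2%) were higher in HF, against 203 of 391 (51.9%) after scaling, and the median of all genes was 0.031 and not -0.004. With the replicate number as a block the count was 424, and the deviations of same-numbered HF and NF_Sugar libraries correlated at -0.461, -0.452 and 0.154 over 17662 genes, so the numbers were not taken to pair the mice. The block changed no call. All 79 genes of the text for which a direction was followed kept it in every fit in which they were tested. Genes were named largely for a small unadjusted p or a lack of overlap in this same contrast. That choice favors a kept direction, so the count is a description only and no measure of robustness. Genes given by their levels alone, such as Slc2a5, Cpt1a and Il1b, were not followed. Of 61 list medians, 28 kept their sign in every fit and 33 did not. Depth limits the genes below about 1 RPKM, such as Tas1r3, Lta and Retnlb.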

Other observations

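Immunoglobulin variable and joining segments were 236 of 17662 tested genes (1.34%) and 15 of the 391 with an unadjusted limma p under 0.05 (3.84%), 11 of them lower in HF and 4 higher.

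The NF and HF_Sugar libraries do not enter the difference between HF and NF_Sugar itself. Among the 203 genes higher in HF at an unadjusted limma p under 0.05, the NF mean lay between the HF and NF_Sugar means for 157 (77.3%) and the HF_Sugar mean for 112 (55.2%), compared with 29.1% and 28.4% of all tested genes. Among the 188 lower genes these counts were 143 (76.1%) and 147 (78.2%). Genes chosen for a wide gap leave more room between the means, so these shares are a description only. HF_Sugar had a higher fitted level than NF for 70 of the 203 genes (34.5%) and for 112 of the 188 (59.6%), where the share over all genes was 48.2%.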
